A study of Arabidopsis thaliana with 3 samples.

Results

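The cytochrome P450 genes and the UDP-glycosyltransferase genes of Arabidopsis thaliana were followed in shoots of Col wild-type plants and of double mutants labelled flp-1/myb88. A gene was taken when its probe set was annotated to exactly 1 gene and its symbol was CYP or UGT followed by digits, a letter and digits. This gave 22 CYP genes and 47 UGT genes, each with 1 probe set, or 69 of 13350 genes with a named probe set of their own. Symbols of this form belong to 225 CYP genes and 58 UGT genes of the TAIR10.1 gene annotation, so most P450 genes were not analysed here. Of the 22 CYP genes, 18 belong to the subfamily CYP71B, so the set represents that subfamily more than the P450 superfamily.

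Cytochrome P450 enzymes are membrane-bound haem proteins that insert oxygen into small molecules. UDP-glycosyltransferases move a sugar from a UDP-sugar onto a hormone, phenolic compound or other acceptor, which changes its solubility, storage and activity. In shoots the members of both families act in phenylpropanoid and flavonoid chemistry, in glucosinolate synthesis, and in the making or inactivation of hormones. Many lie in tandem arrays of close relatives, a common outcome of gene duplication in these families.

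Both groups were sampled at 10 days from plants kept under constant light at 22 °C, and 25 ng of total RNA was amplified for each array. Col was measured on 2 arrays and flp-1/myb88 on 1 array with no replicate, over 22746 probe sets. FLP and MYB88, the genes named in the double mutant, encode related MYB transcription factors that limit division in the stomatal lineage, and the series asked which transcripts differ without them. Nothing in the labels says that the Col arrays came from separate plants, so the p-values rest on a spread between arrays that may be technical only. In a whole shoot, fewer cells of a type and less RNA per cell cannot be told apart.

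The mutant array stood apart from both Col arrays at control probe sets, which could bear on any value below. In 6 of 6 pairs of control probe sets the excess of 3′ over 5′ signal was larger there, with a median log2 excess of 2.92 against 2.37 and 2.31 in Col. At 27 of 27 bacterial poly-A control probe sets, which have low values, the mutant array was also highest. Their part in the results was not tested. All 3 measured leaf photosynthesis markers of 10 lay above both Col arrays without passing the threshold, where 49.2% of all probe sets lay above both. RCA, PSAN and LHCB4.1 differed by 0.39, 0.44 and 0.47 log2. Their summed intensity was 6001 and 4744 in Col, against 7200 in the mutant, so the Col arrays were also far apart. Of 4 measured root markers of 10, the root peroxidase gene at AT3G01190 fell by 2.08 log2 (limma adjusted p = 0.000679). The other 3 did not pass. EXPA7 and EXPA18 lay between the Col arrays, and PYK10 differed by -0.23, from 11.66 and 11.61 in Col to 11.40. The 4 summed to an intensity of 3365 and 3235 in Col, against 2750 in the mutant, and PYK10 made up most of each sum. The labels say shoots, and whether any root tissue was present or adds to the results was not tested.

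The P450 calls were mostly falls and the glycosyltransferase calls mostly rises. Of the 22 CYP genes 4 fell and 1 rose, and of the 47 UGT genes 5 rose and 1 fell, by limma at a Benjamini-Hochberg adjusted p under 0.05 over all probe sets. Over all probe sets 11.9% were called higher and 14.4% were called lower. The CYP genes gave 4.55% higher and 18.2% lower, and the UGT genes 10.6% higher and 2.13% lower. In this fit the shares of UGT rises and of CYP falls were near the background, and those of UGT falls and CYP rises lay below it. The share of CYP falls moved with the processing, from 4.55% with 16 added to each intensity (7.12% of all probe sets) to 27.3% with an intensity trend in the spread (15.1%) and after cyclic loess (15.6%). No difference between a family and the rest was tested. Median centring of the arrays moved the share of falls among all calls from 54.9% to 44.8%. It gave 3 CYP falls (13.6%), 1 CYP rise (4.55%), 7 UGT rises (14.9%) and 1 UGT fall (2.13%). Of all probe sets it called 14.5% higher and 11.7% lower. After quantile normalization 2 CYP genes fell (9.09%) and 1 rose (4.55%), and 4 UGT genes rose (8.51%) and 1 fell (2.13%). Beside these, 7.69% of all probe sets rose and 10.4% fell.

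The medians lay on either side of that of all probe sets. The median log2 difference, mutant minus Col mean, was -0.12 for the CYP genes and 0.26 for the UGT genes, beside 0.10 for all probe sets. Within the CYP genes it was 0.05 for the 18 of CYP71B and -1.11 for the 4 others. Those 4 gave 2 of the CYP falls and the 1 CYP rise. The quartiles of the CYP differences were -0.83 and 0.49, and those of the UGT differences -0.05 and 0.69. The mutant value was above both Col arrays at 26 UGT genes and below both at 13, or 55.3% and 27.7%, beside a background of 49.2% and 37.4%. For the CYP genes the counts were 9 and 10, or 40.9% and 45.5%. At least 2-fold above both Col arrays were 4 UGT genes and 0 CYP genes, against a background of 5.13%, and at least 2-fold below both were 1 UGT gene and 3 CYP genes, against 9.67%. The Col arrays were 2-fold apart at 0 of the 69 genes, where 1.98% of all probe sets were.

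**Figure D1:**
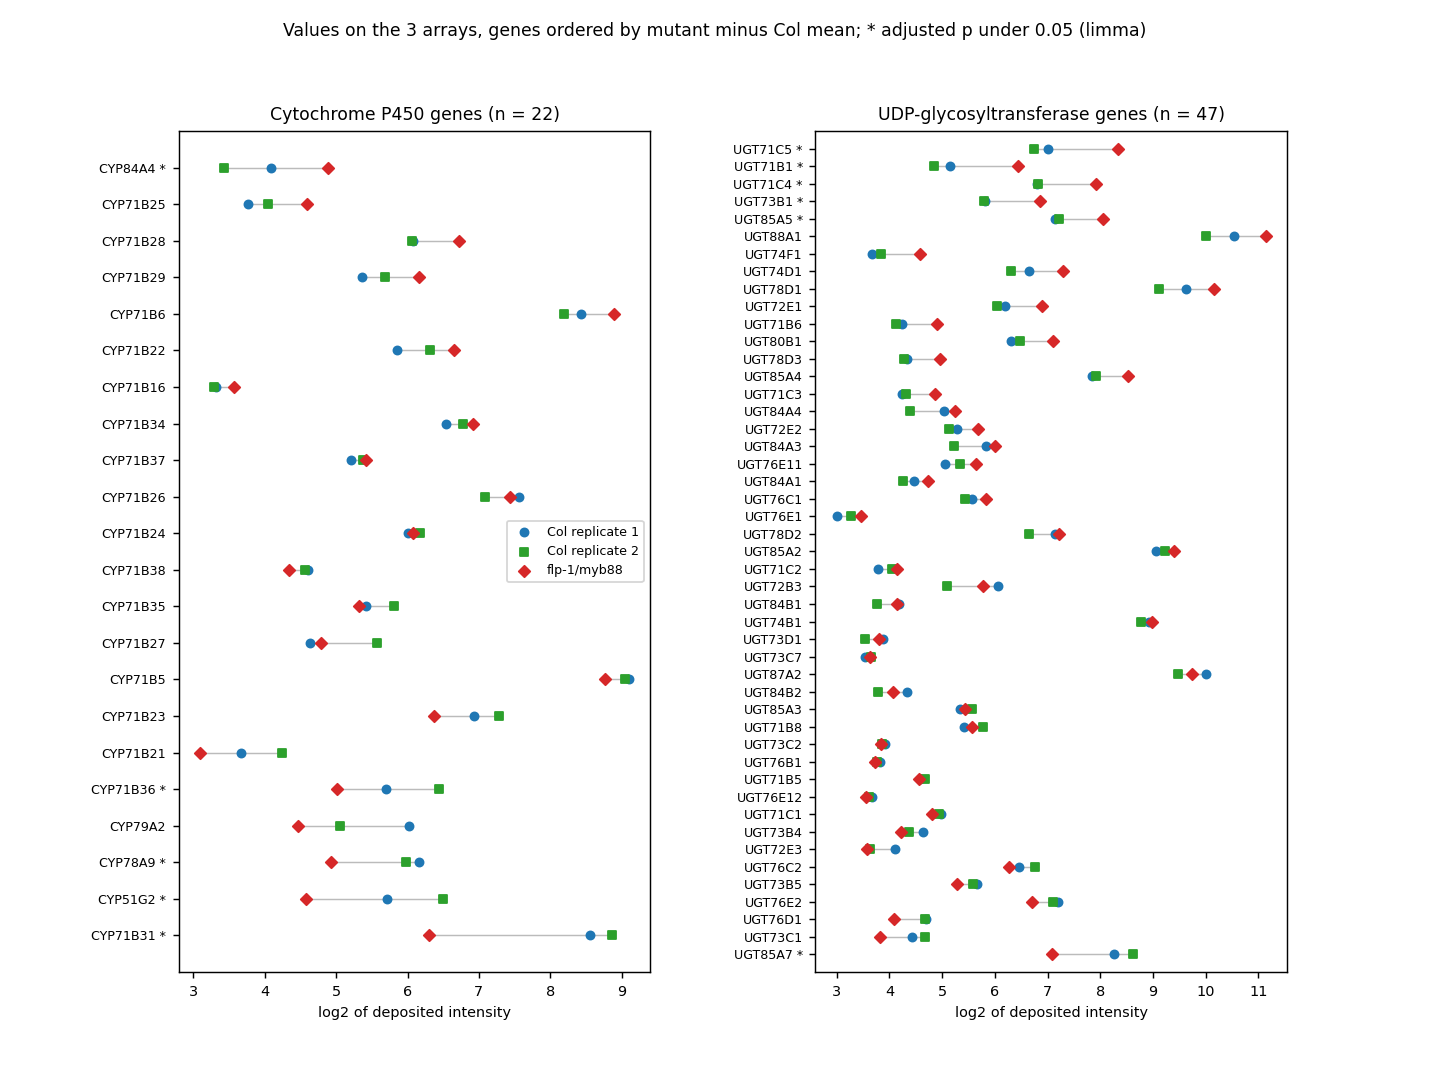
Log2 of the deposited intensity (x axis) of every CYP gene (left, 22) and UGT gene (right, 47) on the 3 arrays, with genes ordered by the mutant value minus the Col mean and an asterisk at those with a limma adjusted p under 0.05. Most rows of the UGT panel have the mutant at the right end, and CYP71B31 at the bottom of the CYP panel has the widest gap, from 8.56 and 8.87 in Col to 6.30.

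CYP71B31 showed the deepest fall of either family. This enzyme is known to oxidize linalool, a terpene of flower scent, as a member of the terpenoid-metabolizing P450s. Its log2 values were 8.56 and 8.87 in Col and 6.30 in the mutant. Both Col values lay well above the mutant value, and the gene fell by 2.41 ± 0.31 log2 (SE), a 5.32-fold difference with a limma adjusted p of 0.000498. Among all probe sets its difference stood at percentile 0.686 from the bottom. The fall passed the threshold under each alternative that gave a test.

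The other 3 CYP falls were smaller, with Col arrays up to 0.78 apart. CYP51G2 is annotated as a transcribed pseudogene related to the sterol 14-demethylase of plants. The Col arrays gave 5.71 and 6.49 and the mutant array 4.58, and the gene fell by 1.53 ± 0.35 log2 (limma adjusted p = 0.00815). The mutant lay below both Col arrays, but the Col arrays were themselves 0.78 apart.

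CYP78A9 belongs to the CYP78A subfamily, whose members promote organ growth, and its overexpression is known to enlarge fruits and seeds. The values were 6.16 and 5.97 in Col and 4.92 in the mutant, with close Col arrays. It fell by 1.14 ± 0.30 log2, a 2.21-fold difference (limma adjusted p = 0.0154), and the call was lost after quantile normalization, at -0.97 with an adjusted p of 0.0543. CYP71B36, a member with no role given here, had 5.70 and 6.45 in Col and 5.02 in the mutant. It fell by 1.06 ± 0.35 log2 (limma adjusted p = 0.0392). With Col replicate 1 alone as the control it was -0.69, and with Col replicate 2 alone -1.43, and the call was lost after quantile normalization (adjusted p = 0.123) and after median centring (adjusted p = 0.0700).

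Adding 16 to each intensity before taking log2 damps changes at low values. With it, CYP51G2 had an adjusted p of 0.0733, CYP78A9 of 0.0529 and CYP71B36 of 0.126, all from limma, so CYP71B31 was the 1 CYP fall left. These 3 genes had a mean log2 under the table's median of 6.09.

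CYP84A4 was the single P450 gene that rose. It is a relative of ferulate 5-hydroxylase and is known to act in the synthesis of arabidopyrones, compounds derived from phenylpropanoids. Its values were 4.09 and 3.44 in Col and 4.89 in the mutant, a rise of 1.13 ± 0.34 log2, or 2.18-fold (limma adjusted p = 0.0272). Among 989 pseudogenes the Col medians were 4.06 and 3.99, close to these Col values, and the upper quartile of their mean log2 was 5.23, above the mutant value too, so detection of CYP84A4 is uncertain on all 3 arrays. Of the 22 CYP and 47 UGT genes, 7 and 21 had a mean under that quartile, and CYP84A4 was the single called gene among them. The sizes of the differences are uncertain for all of these, which include CYP79A2, CYP71B21, CYP71B25, UGT73C1, UGT76D1, UGT74F1, UGT71B6, UGT71C3 and UGT78D3. The poly-A controls, also low, had a median log2 of 3.10 and 3.04 in Col, against 3.47 in the mutant, whose part in the rise was not tested. With 16 added to each intensity the difference was 0.62 (limma adjusted p = 0.115).

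CYP79A2, which starts benzylglucosinolate synthesis from phenylalanine, missed the threshold narrowly. Its values were 6.02 and 5.06 in Col and 4.46 in the mutant, a difference of -1.08 ± 0.38 log2 with a limma adjusted p of 0.0501. The gap between the Col arrays, 0.96, was larger than the distance of 0.60 from the mutant to the nearer of them.

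The remaining 16 CYP71B genes are named here so that every gene is accounted for, and none passed the threshold in the main fit. The largest of their differences was that of CYP71B21, at 3.67 and 4.24 in Col and 3.10 in the mutant, or -0.86 (limma adjusted p = 0.0681). CYP71B23 had a difference of -0.73. CYP71B5, CYP71B27, CYP71B35 and CYP71B38 lay between -0.31 and -0.23, and CYP71B24 at -0.01. CYP71B27, annotated as a transcribed pseudogene like CYP51G2, had 4.64 and 5.57 in Col, with the mutant between them at 4.79. On the positive side CYP71B26 and CYP71B37 had 0.11 and 0.13, and CYP71B34 and CYP71B16 had 0.26 and 0.27. CYP71B22 and CYP71B6 lay at 0.57 and 0.58. CYP71B6 acts on indole-3-acetonitrile, a precursor of indole defence compounds, and its values were 8.44 and 8.19 in Col and 8.89 in the mutant. CYP71B29, CYP71B28 and CYP71B25 had the highest differences, from 0.64 to 0.68. Over all 18 members of CYP71B the median was 0.05, with 2 falls (11.1%, beside 14.4% of all probe sets) and 0 rises by limma. The mutant lay above both Col arrays at 8 genes (44.4%, beside 49.2%) and below both at 7 (38.9%, beside 37.4%). At an unadjusted limma p under 0.05 the 22 CYP genes had 3 higher and 7 lower, where 20.6% of all probe sets were higher and 19.1% lower.

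**Figure D2:**
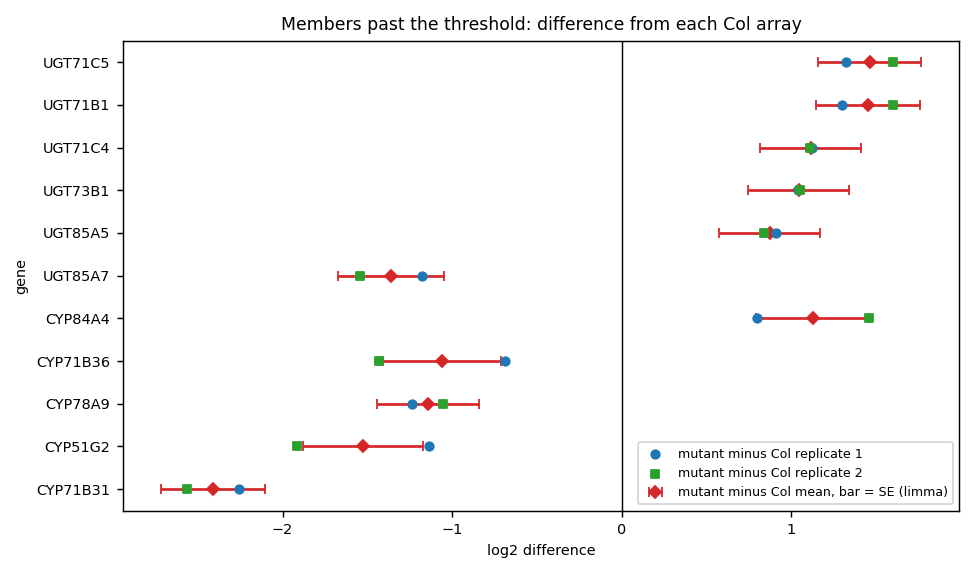
Log2 difference of the mutant (x axis) from the Col mean with its limma standard error (diamond and bar) and from each Col array alone (circle and square), for the 11 genes past the threshold. For each gene both Col arrays give the same direction, and the 2 differences lie farthest apart at CYP51G2, CYP71B36 and CYP84A4.

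Among the glycosyltransferases, the largest rises were of the UGT71 family, to which 9 of the 47 UGT genes belong. Its differences ran from -0.14 to 1.46. Above both Col arrays lay 6 of the 9 (66.7%, beside 49.2% of all probe sets), and below both lay 2 (22.2%, beside 37.4%). No difference between this family and the other UGT genes was tested. UGT71C5, which glucosylates abscisic acid, the hormone that closes stomata, went from 7.01 and 6.74 in Col to 8.34 in the mutant. The mutant lay clearly above both, and the rise of 1.46 ± 0.30 log2, or 2.75-fold, had a limma adjusted p of 0.00482. UGT71B1 rose by about as much, 1.45 ± 0.31 log2 (limma adjusted p = 0.00513), from 5.14 and 4.84 in Col to 6.44. UGT71C4 had almost equal Col values, 6.80 and 6.81, against 7.92 in the mutant. Its rise was 1.11 ± 0.30 log2, or 2.16-fold (limma adjusted p = 0.0166).

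UGT73B1, in the group of stress-related glycosyltransferases UGT73B, rose with similarly close Col arrays. The values were 5.81 and 5.80 in Col and 6.85 in the mutant, a rise of 1.04 ± 0.30 log2, or 2.06-fold (limma adjusted p = 0.0221). UGT71C5, UGT71B1, UGT71C4 and UGT73B1 were called higher under each alternative that tested them. For UGT71B1 the alternative limited to brighter probe sets gave no test.

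The UGT85A subfamily held a rise and a fall. UGT85A7 went from 8.26 and 8.63 in Col to 7.08 in the mutant. It fell by 1.36 ± 0.31 log2, a 2.57-fold difference (limma adjusted p = 0.00771), and it was called under each alternative that gave a test. UGT85A5 went from 7.14 and 7.21 to 8.05, a rise of 0.87 ± 0.30 log2, or 1.83-fold (limma adjusted p = 0.0462). That call was lost after quantile normalization (0.73, adjusted p = 0.104), after cyclic loess (0.67, adjusted p = 0.112) and with 16 added to each intensity (0.81, adjusted p = 0.0536). UGT85A4 differed by 0.65, UGT85A2 by 0.26 and UGT85A3 by -0.01, none of them past the threshold. The difference between UGT85A7 and UGT85A5 was not tested.

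Differences varied among genes that lie next to each other. With at most 5 other genes between them in the gene table, 47 of the 69 genes fell into 17 groups, 4 of CYP genes and 13 of UGT genes. In 7 of the 17 groups 1 gene or more lay above both Col arrays and 1 or more below both. Over all probe sets 49.2% lay above both and 37.4% below both, so mixed groups would be common among unrelated genes too. Whether neighbours differ from other genes in this was not tested. UGT85A7, UGT85A2, UGT85A5 and UGT85A3, at AT1G22340 to AT1G22380, formed the single group with calls in both directions and spanned 2.23 log2. CYP71B5 and CYP71B31, with 3 other genes between them, had differences of -0.31 and -2.41. CYP71B5 was at 9.10 and 9.05 in Col and 8.76 in the mutant.

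Along the P450 array at AT3G26270 to AT3G26330, CYP71B25, CYP71B26, CYP71B34, CYP71B35, CYP71B36 and CYP71B37 ran from -1.06 to 0.68, and the fall of CYP71B36 stood between -0.30 and 0.13 at its immediate neighbours. CYP71B21, CYP71B22 and CYP71B23, adjacent in the gene table, had -0.86, 0.57 and -0.73. In some other arrays no gene lay below both Col arrays. UGT71C5, UGT71C4 and UGT71C3, adjacent at AT1G07240 to AT1G07260, had 1.46, 1.11 and 0.58, the last with a limma adjusted p of 0.166. UGT84A1, UGT84A3 and UGT84A4 lay within 0.15 log2 of each other, from 0.38 to 0.53. UGT71B1, UGT71B6 and UGT71B8 had 1.45, 0.71 and -0.04, the last between the Col arrays. Close relatives in an array can share probe sequence, although all 69 probe sets are of the plain _at type and none of a type marked as matching several genes.

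**Figure D3:**
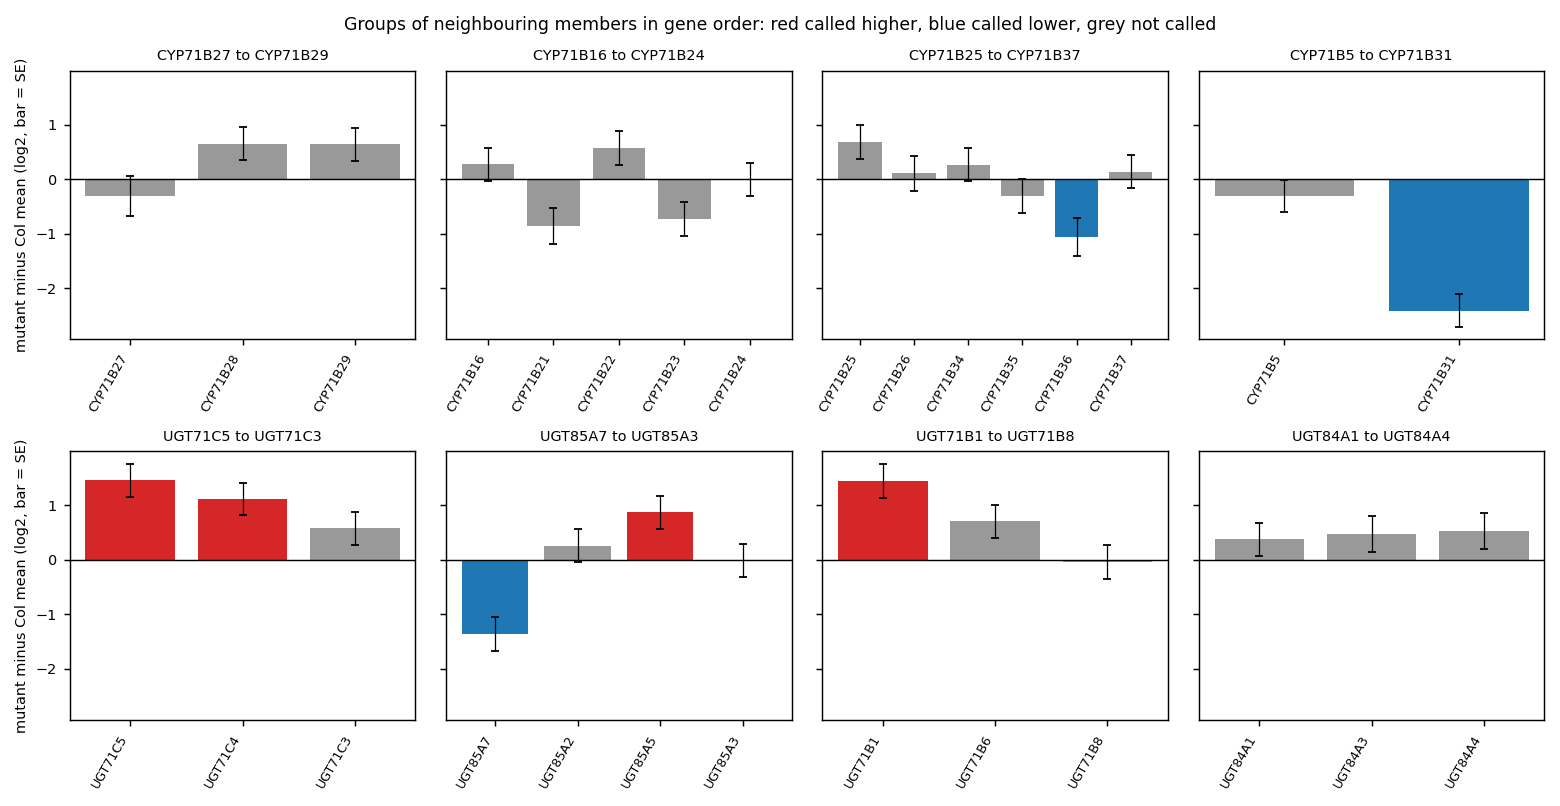
Mutant minus Col mean in log2 (y axis, bars from 0 with the limma standard error) for genes in gene order within 8 groups of neighbours, those with at least 3 genes or a call. UGT85A7 and UGT85A5 point in opposite directions, UGT71C5 to UGT71C3 all lie above 0, and CYP71B31 lies far below its neighbour CYP71B5.

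The 3 measured flavonoid glycosyltransferases lay above both Col arrays without passing the threshold, where 49.2% of all probe sets lay above both. All 3 measured of the 7 on the list, UGT78D1, UGT78D2 and UGT78D3, had the mutant as the highest array, and their median difference was 0.67. They add rhamnose, glucose and arabinose to flavonols, and UGT78D2 also glucosylates anthocyanins. UGT78D1 had 9.62 and 9.11 in Col and 10.16 in the mutant, a difference of 0.80 ± 0.32 (limma adjusted p = 0.0823). The distance of the mutant from the nearer Col array, 0.54, was about as large as the 0.51 between the Col arrays. UGT78D3 differed by 0.67 ± 0.30, with Col arrays at 4.32 and 4.28 and the mutant at 4.97. UGT78D2 differed by 0.32, or 0.08 from Col replicate 1 alone.

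Monolignol and hydroxycinnamate glycosyltransferases were measured at 6 of 8 listed genes, with 5 above both Col arrays and 0 calls. Over all probe sets 49.2% lay above both and 26.3% were called in either direction. UGT72E1, UGT72E2 and UGT72E3 glucosylate lignin precursors, and UGT84A1, UGT84A3 and UGT84A4 make glucose esters of hydroxycinnamic acids. UGT72E1 had 6.19 and 6.04 in Col and 6.89 in the mutant, a difference of 0.78 ± 0.30 log2 (limma adjusted p = 0.0715). UGT72E2 differed by 0.48, and UGT72E3 by -0.29, where the Col arrays gave 4.11 and 3.62 and the mutant array 3.57. The list median was 0.48. At UGT84A3 and UGT84A4 the Col arrays were 0.62 and 0.65 apart, more than the distance of the mutant from the nearer one.

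Hormone-related glycosyltransferases gave 1 call, that of UGT71C5, where 26.3% of all probe sets were called in either direction. UGT71B6, which also glucosylates abscisic acid, had 4.25 and 4.13 in Col and 4.90 in the mutant, a difference of 0.71 ± 0.30 (limma adjusted p = 0.0964). UGT71B8, a close relative, lay between the Col arrays at -0.04. Of the auxin genes, UGT74D1 had 6.66 and 6.32 in Col and 7.29 in the mutant, or 0.80 ± 0.31 (limma adjusted p = 0.0711). UGT84B1 and UGT84B2, which form glucose esters of auxin, lay between the Col arrays at 0.17 and 0.00468.

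The cytokinin genes were split, with the N-glucosyltransferases UGT76C1 and UGT76C2 at 0.34 and -0.34, on opposite sides of Col although adjacent in the gene table. UGT73C1, which acts on cytokinins in vitro, had 4.43 and 4.67 in Col and 3.82 in the mutant, a difference of -0.73 ± 0.30 (limma adjusted p = 0.0924).

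Of the salicylate and defence genes 6 of 8 were measured and 0 were called (26.3% of all probe sets were), with a median of -0.18. UGT74F1, which makes salicylic acid glucoside, lay highest, at 3.67 and 3.84 in Col and 4.57 in the mutant, or 0.82 ± 0.30 (limma adjusted p = 0.0602). UGT71C3, which acts on methyl salicylate, differed by 0.58. The others lay below both Col arrays. UGT76D1, which acts on dihydroxybenzoic acids, had -0.61 ± 0.30, and the stress-responsive pair UGT73B5 and UGT73B4 had -0.34 and -0.29. UGT76B1, which glucosylates salicylic acid and isoleucic acid, had -0.06, with 3 arrays between 3.73 and 3.82.

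Single genes stood for the last pathways. UGT74B1, which makes the thioglucoside step of glucosinolate synthesis, differed by 0.13, from 8.92 and 8.78 in Col to 8.98. UGT80B1, a sterol glucosyltransferase, differed by 0.70 ± 0.30 (limma adjusted p = 0.0986), from 6.31 and 6.48 to 7.10.

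The other UGT genes, named to account for each, ran from -0.46 to 0.86. UGT88A1 came nearest to a call, with 10.53 and 10.02 in Col and 11.14 in the mutant, a difference of 0.86 ± 0.32 (limma adjusted p = 0.0632). Its Col arrays were 0.51 apart. The UGT76E genes lay on both sides, with UGT76E11 at 0.44, UGT76E1 at 0.32, UGT76E12 at -0.09 and UGT76E2 at -0.46. UGT71C2 had 0.22, UGT71C1 -0.14 and UGT71B5 -0.07. UGT72B3 had 0.20, with Col arrays 0.97 apart, the widest gap of the family. UGT73D1, UGT73C7 and UGT73C2 lay between -0.04 and 0.09. UGT87A2, known to act in flowering time, lay at 0.01, between Col values of 10.02 and 9.47. At an unadjusted limma p under 0.05 the 47 UGT genes had 14 higher and 2 lower, beside the same 20.6% and 19.1% of all probe sets.

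Other enzymes of these pathways were measured at 4 of 88 listed genes, and none passed the threshold. HCT, which forms the shikimate esters of the lignin pathway, had 7.40 and 7.30 in Col and 8.13 in the mutant, a difference of 0.78 ± 0.30 log2 (limma adjusted p = 0.0692). DFR, the reductase that leads to anthocyanins, differed by 0.80 ± 0.30. BCAT4, an aminotransferase of methionine-derived glucosinolates, differed by 0.75 ± 0.31. Each of these 3 lay above both Col arrays, as did 49.2% of all probe sets. ATR3 (AT3G02280), a flavin reductase related to the electron donors of P450 enzymes, lay between the Col arrays at 0.03. Of the 121 CYP and UGT genes on the role lists 30 were measured, and the P450 lists for brassinosteroids, gibberellins, abscisic acid, jasmonate, cytokinins, camalexin, cutin and sterols had no measured member.

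Differences between the Col arrays show how far the Col values varied at each gene. They do not measure the error of the single mutant array. The median size of that difference was 0.31 log2 for the CYP genes and 0.21 for the UGT genes, beside 0.25 for all probe sets. Col replicate 2 lay below Col replicate 1 at 30 of 47 UGT genes and at 9 of 22 CYP genes. Of the 5 UGT rises 3 had Col replicate 2 lower, and of the 4 CYP falls 3 had it higher. The UGT median was 0.17 against Col replicate 1 and 0.30 against Col replicate 2, and the CYP median was -0.01 and -0.16. UGT71C4, UGT73B1 and UGT85A5, where the Col arrays were within 0.07 of each other, gave nearly the same rise against either. Of the genes past the threshold, CYP51G2, CYP71B36 and CYP84A4 had the widest Col gaps.

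**Figure D4:**
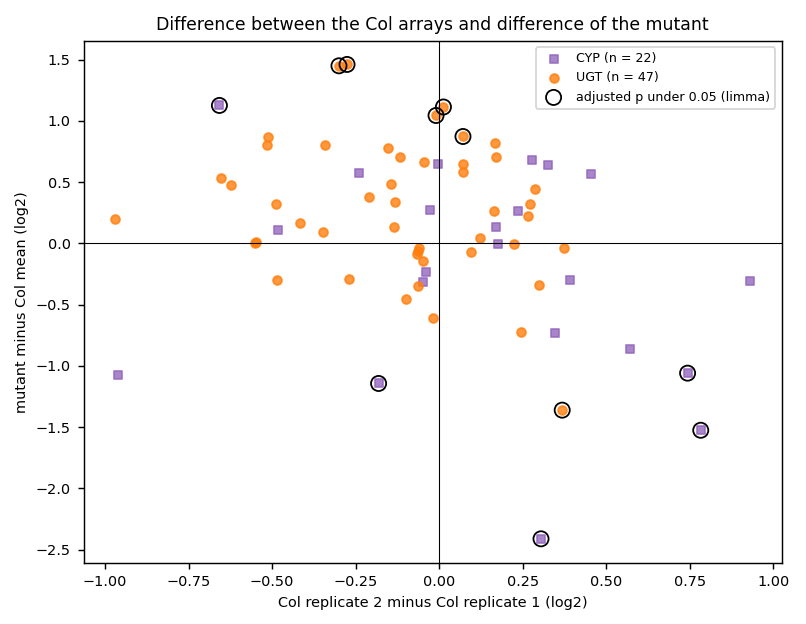
Mutant minus Col mean (y axis, log2) against the difference between the Col arrays (x axis, log2) for the 22 CYP genes (squares) and 47 UGT genes (circles), with rings around the genes called by limma. The ringed UGT rises lie between -0.30 and 0.07 on the x axis, while CYP51G2 and CYP71B36 lie at 0.78 and 0.74 and CYP84A4 at -0.66.

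Probe sets that carry a family name but fall outside the rule gave no call, where 26.3% of all probe sets were called in either direction. There were 5 annotated to several genes and 4 whose gene has another symbol with a UGT synonym. The probe set shared by CYP71B20 and CYP71B19 differed by 0.26, from 9.63 and 9.52 in Col to 9.84 in the mutant. The one shared by UGT73B2 and UGT73B3 differed by -0.13. The one shared by UGT89B1 and AT1G73885 differed by 0.79, from 7.02 and 5.73 in Col to 7.16 in the mutant. Those shared by UGT71D1 and AT2G29710 and by CYP79C2 and AT1G58265 differed by 0.32 and -0.09. UGT79B1, which adds xylose to anthocyanins, differed by 0.82 ± 0.30 log2 (limma adjusted p = 0.0597) and UGT72B1, which acts on monolignols and xenobiotics, by 0.69. The sterol glucosyltransferase UGT80A2 differed by 0.05. UGT79B6 differed by -0.65 and lay below both Col arrays, at 4.90 and 4.71 in Col and 4.15 in the mutant.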

How the data were processed

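Probe set intensities on a linear scale were deposited by the authors for 3 arrays, made with RMA, per the submitters' processing notes. Which program ran RMA is not given in the sources used here. RMA subtracts background, normalizes arrays by quantiles and gives 1 value per probe set, yet the deposited columns had upper quartiles of 172, 173 and 187. The linear scale was read from the values, 6.06 to 14527. log2 was taken of the deposited intensities with no pseudocount, and 64 control probe sets were left out of the tests. Of 22746 probe sets, 13513 had 1 gene in the platform annotation, 503 several and 8730 none named here, and 13436 matched the TAIR10.1 gene table. No coordinates are given because the files name no build, and protein and promoter sequences were not used here.

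limma 3.58.1 (R 4.3.3; lmFit and eBayes, two-sided, Benjamini-Hochberg over all probe sets, threshold 0.05) compared the mutant with Col, with 1 residual degree of freedom from Col and 12.1 prior degrees of freedom. This gives the single mutant array the spread of Col. On simulated data, with 200 of 22746 probe sets changed, the fit recovered 13% of 2-fold, 98.5% of 4-fold and 100% of 8-fold changes. False calls numbered 17, 59 and 19. The simulated arrays all had the same noise model, with no shift of the mutant array. In the data differences down to 0.85 log2 in size, under 2-fold, were called. The simulated rates therefore do not give the recovery or the false calls of the real comparison.

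The members, the role lists and the tests were chosen with earlier results of these data known. Genes were named as the 10 highest and 10 lowest called differences of each family, all measured role list members, and pathway partners, and the rest to account for each member. Alternatives were other spread models, normalizations, a filter on dim probe sets, 16 added to each intensity, and leaving out each Col array. The number of arrays limits the precision.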

Additional observations from a re-analysis of the deposited data

Results flagged for a closer look

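Control probe sets, which entered no comparison, set the mutant array apart from Col. Over 6 pairs for actin, GAPDH and ubiquitin the median log2 difference of the 3′ from the 5′ probe set was 2.92 on the mutant array and 2.37 and 2.31 on the Col arrays. The median log2 value of 27 bacterial poly-A controls was 3.47 on the mutant array and 3.10 and 3.04 on the Col arrays.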

How the results depend on the processing

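No paired analysis was possible because the flp-1/myb88 array is single and carries no replicate number. With probe sets limited to those at or above the median mean log2, 0 CYP genes were called higher and 1 lower, 1 was at least 2-fold below both Col arrays and the CYP median turned to 0.18 over 8 genes, while 8 UGT genes were called higher and 1 lower with a median of 0.70 over 17. Of the 11373 probe sets tested there, 2117 were higher (18.6%, beside 47.1% of these UGT genes) and 1976 lower, with a median of 0.22. The filter uses all 3 arrays, so these shares are no support for a family difference. Quantile normalization gave 2 CYP falls, 1 CYP gene at least 2-fold below both Col arrays and 1749 rises over all probe sets. With 16 added to each intensity there were 0 CYP rises, 1 CYP fall and 1 CYP gene at least 2-fold below both, and 1123 rises and 1619 falls over all probe sets. An intensity trend gave 8 UGT rises (17.0%, beside 14.2% of all probe sets) and 6 CYP falls, and cyclic loess gave 6 CYP falls and left 2 UGT genes at least 2-fold above both Col arrays. The cause of these shifts was not tested. Leaving out 1 Col array, which leaves no test, gave 0 to 1 CYP genes at least 2-fold above and 4 to 5 at least 2-fold below the remaining one, 4 to 6 UGT genes above and 1 below, CYP medians of -0.16 to -0.01 and UGT medians of 0.17 to 0.30. Median centring moved every difference, and so the median of all probe sets, by 0.11. The CYP median minus that of all probe sets was -0.22, from -0.27 without Col replicate 1 to -0.04 in the brighter probe sets. The UGT median minus it was 0.16, from 0.06 without Col replicate 2 and 0.07 with 16 added to 0.48 in the brighter probe sets. Leaving out _s_at and _x_at probe sets, averaging the probe sets of a gene and using platform symbols kept the same 69 probe sets. Over single genes 10 calls were lost and 13 gained over the alternatives with a test, and no called gene changed direction. The gained falls were CYP79A2 and CYP71B21 with an intensity trend, and CYP71B21 and CYP71B23 after cyclic loess. The gained rises were UGT78D1, UGT74F1 and UGT88A1 with the trend, and UGT72E1 and UGT74F1 after median centring. In the brighter probe sets they were UGT72E1, UGT78D1, UGT74D1 and UGT88A1.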
